A study of Mus musculus with 9 samples.

Results

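Choroid plexus epithelial cells were selected from 9 droplet single-cell RNA-seq libraries, each taken as 1 mouse, 4 of controls (genotype NestinCreERT2;TdT) and 5 of mice with EP ZFTA-RELA tumors (genotype NestinCreERT2;Fus1), aged 6 to 8 weeks. In each library the 10000 barcodes with most unique molecular identifiers (UMIs, counts of captured RNA molecules) were considered, and a barcode was kept if it held at least 200 genes and less than 15% mitochondrial UMIs. Members were defined by Ttr at 5% or more of UMIs together with a UMI of at least 2 of Folr1, Kl, Clic6, Kcne2, Enpp2, Sostdc1 and Aqp1. The rule found 209 cells among 64643 kept barcodes (0.323%), 149 in controls and 60 in tumor-bearing mice.

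All 9 mice carried NestinCreERT2, a Cre that tamoxifen activates and that Nestin drives in neural progenitors. In the tumor mice it recombined a conditional ZFTA-RELA fusion allele in embryonic radial glia, and the control libraries, but not the tumor libraries, held tdTomato UMIs. Suspensions passed a Percoll step and were stained with DAPI, a dead-cell dye, and for Ter119, a red blood cell antigen, before sorting. The study's methods also list an antibody to CD45, an immune cell antigen, in its single-cell stain. Tumor and brain were dissected with the choroid taken out, so the cells described here are those that the dissection left, and their number measures dissection and tissue together.

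The choroid plexus is a folded sheet of cuboidal epithelium in the brain ventricles. It secretes cerebrospinal fluid by moving sodium, chloride, bicarbonate and water across its apical face, and its tight junctions form the barrier between blood and cerebrospinal fluid. It makes transthyretin (Ttr), the carrier of thyroid hormone and retinol in that fluid, in very large amounts, and it arises beside the ependyma, the ciliated lining of the ventricles.

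The libraries were unequal. Library totals ran from 101060608 to 178086164 UMIs in controls and from 14967680 to 69411387 in tumors, and tumor 1 had the fewest kept barcodes (2846, against 5959 to 9999 in the other libraries). UMIs of the fusion transcript were at 0 in the kept barcodes of every control and numbered 4, 273, 10, 931 and 465 in tumors 1 to 5. In counts per 1000000 UMIs (CPM) of kept barcodes the fusion stood at 0.639 in tumor 1 and 0.766 in tumor 3, against 12.6 to 17.5 in tumors 2, 4 and 5. Neuron markers, a list of 14 genes, summed to 19819 to 22907 CPM in the other kept barcodes of controls, 9074 in tumor 1 and 466 to 3757 in the other tumors. Tumor 1, which holds 59 of the 60 tumor members, thus lay between the controls and the remaining tumors in its neuron markers.

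The epithelial cells were found in every control and, beyond 1 cell, in only 1 of the 5 tumors. Controls 1 to 4 held 18, 25, 45 and 61 cells, which was 0.221%, 0.337%, 0.700% and 0.853% of their kept barcodes. Tumor 1 held 59 cells, or 2.07% (exact Clopper-Pearson 95% interval 1.58 to 2.67%), the highest share of any library. Tumor 3 held 1 cell (0.0149%), and tumors 2, 4 and 5 held none, which by a limit of 3 counts allows shares of up to 0.0503%, 0.0300% and 0.0300% (the exact two-sided interval drawn in the plot of shares reaches 0.0619%, 0.0369% and 0.0369%). Intervals and limits cover counting error only.

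Across all mice the share did not separate the groups. The tumor mean was 0.418% ± 0.925 (SD, n = 5) and the control mean 0.528% ± 0.298 (SD, n = 4), a difference of -0.110 percentage points (two-sided exact permutation test over mice, p = 0.905, adjusted over 6 per-mouse comparisons 0.905). The number of cells per library was 12 ± 26.3 (SD, n = 5) against 37.25 ± 19.5 (SD, n = 4), with an exact permutation p of 0.135 (adjusted 0.300). The share rests on tumor 1. Without that library the tumor mean was 0.00373% ± 0.00745 (SD, n = 4), below every control. The exact permutation p was then 0.0286, the smallest that 4 against 4 mice can give. It was not adjusted, and it follows from leaving out the library with 59 of the 60 tumor cells.

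**Figure D1:**
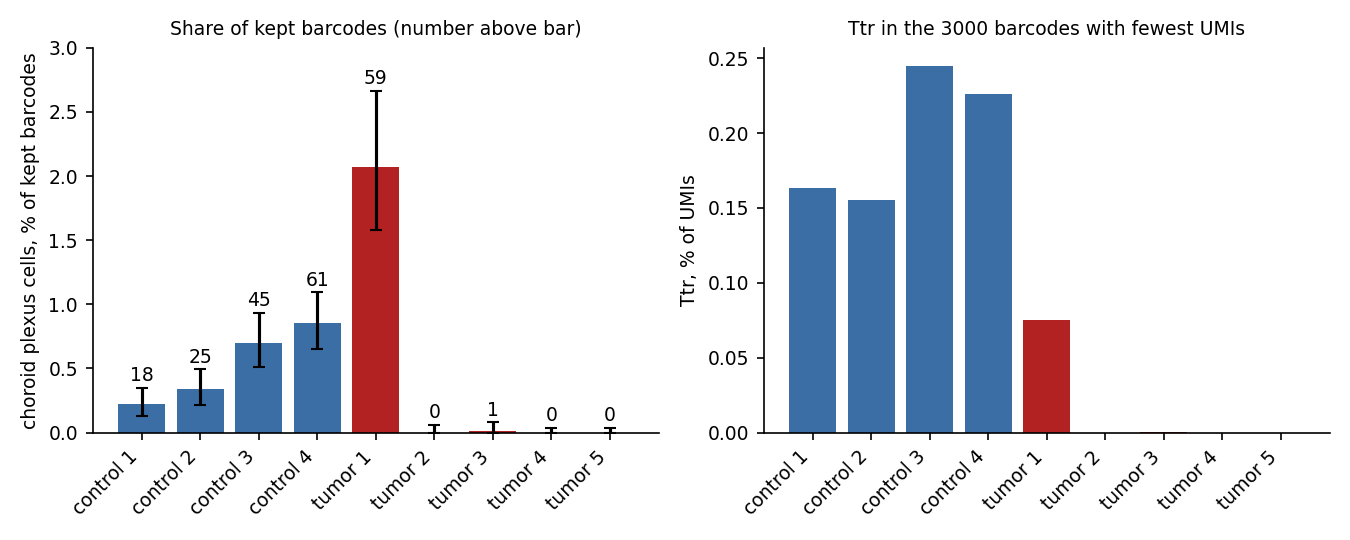
Left, choroid plexus epithelial cells as a percentage of kept barcodes in each of the 9 libraries, with exact 95% binomial intervals (counting error only) and the number of cells above each bar. Right, Ttr as a percentage of UMIs in the 3000 barcodes with fewest UMIs of the same libraries. Controls are blue and tumors red. Tumor 1 is highest on the left at 2.07% and below all 4 controls on the right at 0.0749%, while tumors 2 to 5 are at or near 0 in both.

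Ttr outside the cells followed the groups more closely than the cells did. Ttr is the main gene of the rule, and the choroid was dissected out. Its level in free RNA therefore measures dissection and tissue together, and their parts were not tested. Per library, the 3000 barcodes lowest in UMIs were taken as free RNA, and they still held a median of 559 to 1338 UMIs each. In tumor 3, with 9001 barcodes in all, 1853 of the 3000 had also been kept as cells, and in the other libraries none. Ttr made up 0.163%, 0.155%, 0.245% and 0.226% of these UMIs in controls 1 to 4, and 0.0749% in tumor 1. In tumors 2 to 5 it had 0, 10, 0 and 1 UMIs among 1682478 to 1924888. All 5 tumors lay below all 4 controls (0.0151% ± 0.0334, n = 5, against 0.197% ± 0.0448, n = 4, SD), with an exact permutation p of 0.00794, the smallest this design can give, and 0.0476 after adjustment over the 6 comparisons. Leaving out the kept barcodes of tumor 3 gave it 0.000312% Ttr and the same exact permutation p of 0.00794. Without tumor 1 the difference was -0.197 percentage points (exact permutation p = 0.0286). Over the whole libraries Ttr reached 1547 to 2582 CPM in controls and 3238 CPM in tumor 1, but 0.0903, 23.3, 0.115 and 1.05 CPM in tumors 2 to 5. In tumors 2, 4 and 5 no barcode of the whole matrix exceeded 0.154% Ttr.

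The genes that defined the cells are given as a description, since they were used to choose them. Summed over the cells of a mouse, Ttr took 14.6%, 15.9%, 19.7% and 18.5% of UMIs in controls 1 to 4, 26.6% in tumor 1 and 29.3% in the 1 cell of tumor 3. Per cell, the median was 13.6%, 13.6%, 12.5% and 15.7% in controls and 24.9% in tumor 1, and single cells reached 46.3% in control 3. Enpp2, which encodes autotaxin, a secreted phospholipase D, was next at 7755, 11386, 9667 and 7604 CPM in controls and 5424 CPM in tumor 1. Folr1, the folate receptor of this epithelium, stood at 556 to 851 CPM in controls and 589 CPM in tumor 1. Kl, which encodes the co-receptor Klotho, ran from 408 to 736 CPM in controls and was 374 CPM in tumor 1, the lowest of the 5. Sostdc1, a secreted antagonist of BMP and Wnt signals, was also lowest in tumor 1, at 361 CPM against 432 to 743 CPM. Clic6, a chloride channel family member, and Kcne2, a potassium channel subunit, went the other way and were highest in tumor 1 at 336 CPM and 158 CPM, against 170 to 312 CPM and 68.5 to 112 CPM. Aqp1, the apical water channel, gave few UMIs, at 26.5 to 58.9 CPM in controls and 31.7 CPM in tumor 1.

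Barcodes lay on both sides of the Ttr limit and of the other limits. Kept barcodes with Ttr between 1 and 5% numbered 18, 13, 19 and 34 in controls 1 to 4 and 6 in tumor 1. There were 13 members with Ttr between 5 and 6% and, just outside, 8 barcodes with Ttr between 4 and 5% that carried the other markers. Their median UMI counts were 2686 and 2912.5. Barcodes with Ttr at or over 5% that lacked the required markers numbered 11, of which 10 came from tumor 1, where their median was 18.7% Ttr with 1288 UMIs. Of the 209 cells, 35 carried only the required 2 smaller markers. Cells with 4 or more of the 7 smaller markers numbered 10, 20, 32 and 41 in controls and 26 in tumor 1.

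Within each of the 5 mice, cells richer in Ttr ranked higher in UMIs and lower in the share of other cell types' transcripts. Cells at 20% Ttr or more had median UMI counts of 7806.5, 7661.5 and 4445 in controls 2 to 4, against 3175, 3148.5 and 3384 in cells under 10%. The corresponding medians were close together in tumor 1, at 2469.5 and 2303.5, and were 2659 and 1615 in control 1, which had 2 cells at 20% Ttr or more. Spearman's rho between Ttr percentage and UMIs across cells was 0.26, 0.64, 0.53 and 0.38 in controls and 0.53 in tumor 1, and between Ttr percentage and the share of other cell types' markers it was -0.34, -0.51, -0.63 and -0.49 in controls and -0.67 in tumor 1. These are descriptions over 18 to 61 cells of 1 library each, the Ttr percentage and the marker share have the same denominator, and Ttr chose the cells.

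Malat1 was low in most of the cells. This transcript, a long noncoding RNA retained in the nucleus of many cell types, had a median of 0.508%, 0.444%, 0.422% and 0.533% of UMIs per epithelial cell in controls 1 to 4 and 0.0826% in tumor 1. Its median over all kept barcodes of the same libraries was 6.96%, 6.24%, 7.21%, 7.07% and 2.86%, and the summed free RNA held 0.852 to 1.22% Malat1. Of the 208 epithelial cells in these 5 mice, 20 (9.62%) reached 2% Malat1, against 251 of 377 endothelial cells (66.6%), 77.0% of all kept barcodes and 5.91% of free-RNA barcodes of the same mice. Those 20 cells had a median of 4792.5 UMIs, 11.8% Ttr and 10.1% mitochondrial UMIs, and the other cells 3289 UMIs, 16.6% Ttr and 11.9%. Counting only those cells, the difference in share between tumors and controls was -0.0493 percentage points (exact permutation p = 0.0952).

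**Figure D2:**
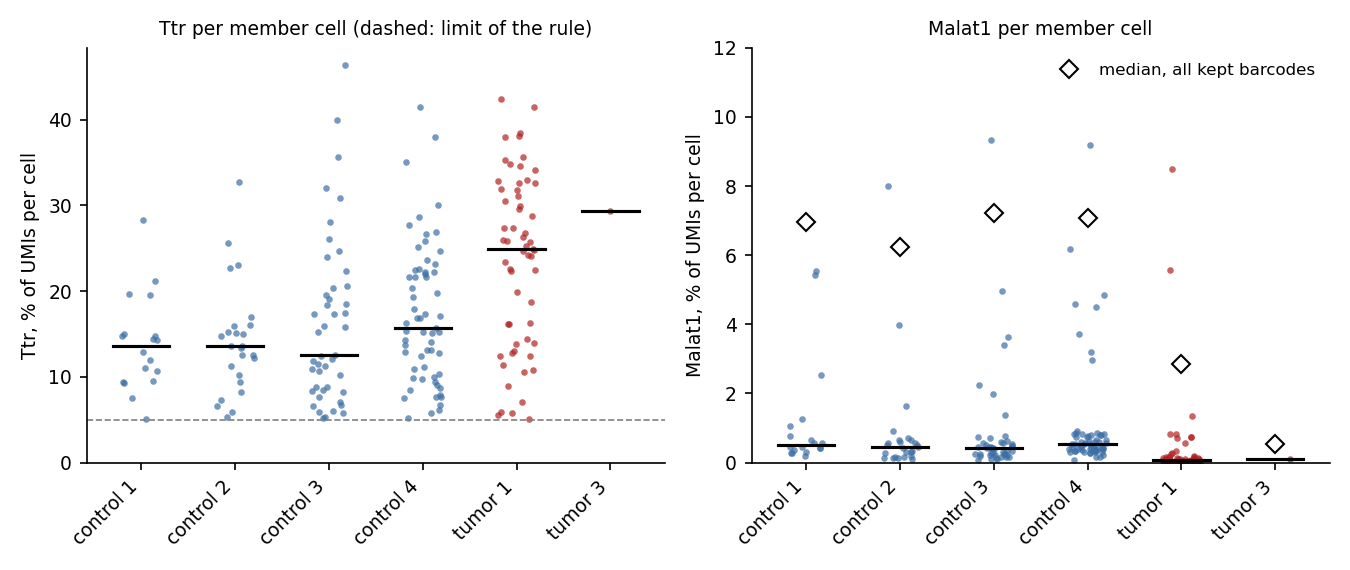
Ttr (left) and Malat1 (right) as a percentage of UMIs in each choroid plexus epithelial cell, by library; bars are medians, diamonds are the medians of all kept barcodes and the dashed line is the 5% limit of the rule. Cells of tumor 1 sit higher in Ttr (median 24.9%) than those of controls (12.5 to 15.7%), and in controls 1 to 4 and tumor 1 the cells' Malat1 medians (0.0826 to 0.533%) lie far below those of all kept barcodes (2.86 to 7.21%).

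Depth and mitochondrial content differed between mice too. Median UMIs per epithelial cell were 1796, 3991, 4195 and 4073 in controls and 2192 in tumor 1, and median genes were 987, 1731, 1710 and 1638 against 953. Control 1 was thus as shallow as tumor 1. Median mitochondrial UMIs were 12.5%, 12.5%, 11.3% and 11.9% in controls and 10.5% in tumor 1, above the medians of all kept barcodes in controls (8.46 to 9.29%) and level with that in tumor 1 (10.5%). With 3 controls and 1 tumor holding at least 20 cells, an exact permutation test cannot go below 0.25, and it gave 0.25 for each of these 3 measures (adjusted 0.300). The mitochondrial limit removed 11, 7, 12 and 12 barcodes that met the other rules in controls and 39 in tumor 1.

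Choroid plexus genes that the rule did not use were present as well. Of 30 such genes, 26 had at least 20 UMIs over controls 2 to 4 and tumor 1, and 22 of the 26 averaged at least 4-fold above the other kept barcodes of the same mice on the log2(CPM + 10) scale. The same held for 2.03% of all 4983 genes at that depth, but the contrast is the one that chose the cells, so nothing is read from it. Ecrg4, a secreted peptide precursor, stood at 1562, 1831, 1983 and 1515 CPM in controls and 2579 CPM in tumor 1, against a mean of 29.9 CPM in the other barcodes and 37.9 CPM in free RNA. Kcnj13, an apical potassium channel, stood at 371, 472, 518 and 375 CPM in controls and 355 CPM in tumor 1, 38.0-fold above the other barcodes on average. F5, coagulation factor V, ran from 238 to 316 CPM in controls and was 234 CPM in tumor 1, 129-fold above the other barcodes on average. Tumor 1 lay just below the control range in Kcnj13 and F5 and above it in Ecrg4. Prlr, the prolactin receptor, was at 364 to 784 CPM in controls and 317 CPM in tumor 1.

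Some junction and keratin genes of epithelia were detected too. Of 27 listed, 8 had at least 20 UMIs, and 3 of these averaged at least 4-fold above the other barcodes. The list summed to 688 to 926 CPM in control cells and 501 to 533 CPM in the other barcodes of controls. In tumor 1 the sums were 1083 and 1020 CPM, and endothelial cells of controls had 2792 CPM. Cldn1, Cldn3 and Krt8 had a UMI in only 10, 8 and 26 of the epithelial cells. Krt18, an epithelial keratin, was at 79.4, 128, 177 and 137 CPM in controls and 298 CPM in tumor 1, against 1.95 CPM elsewhere. Cldn2, the claudin of leaky, water-permeable tight junctions, stood at 26.5 to 75.8 CPM in controls and 57.0 CPM in tumor 1, against 1.90 CPM. Its level in endothelial cells of controls was 0 CPM, and Kcnj13 and Prlr were at 3.86 and 5.14 CPM there.

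**Figure D3:**
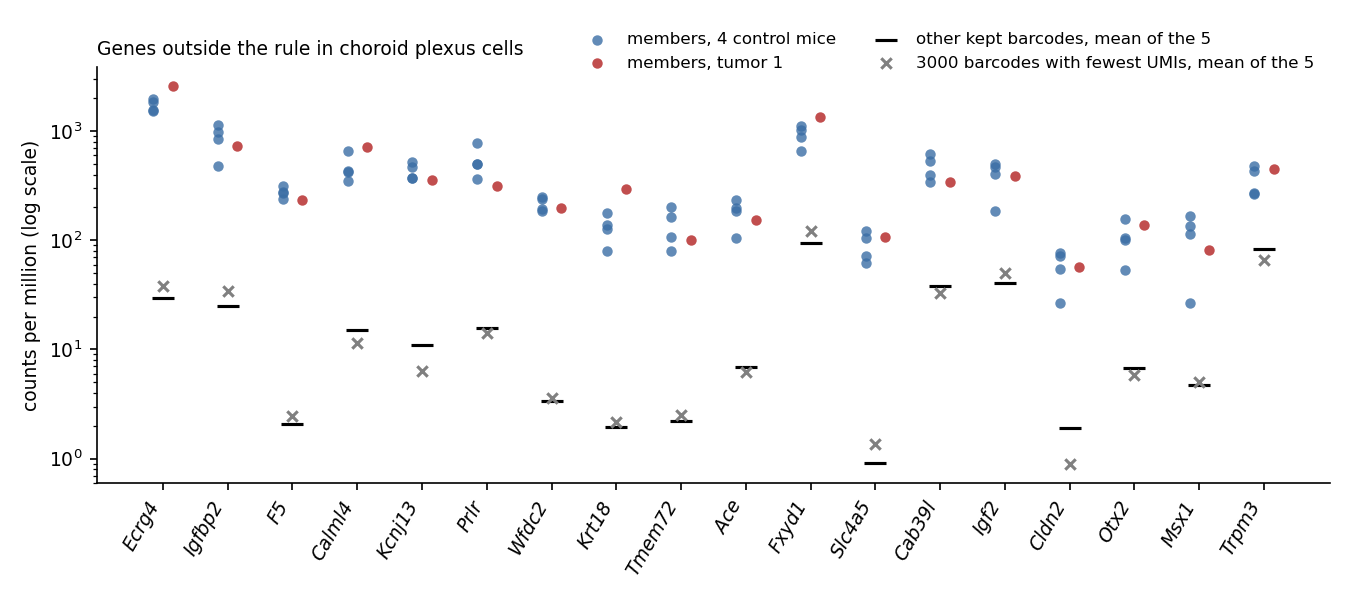
Levels of 18 genes outside the rule in choroid plexus epithelial cells, in CPM on a log axis, 1 point for each of the 4 control mice (blue) and tumor 1 (red); dashes are the mean of the other kept barcodes and crosses the mean of free RNA over the same 5 mice. Ecrg4 stands at 1515 to 2579 CPM in the cells, against 29.9 CPM in other barcodes, and every gene shown lies above both references in all 5 mice.

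Ion and water transport genes differed in how far they stood above the other barcodes. Slc4a5, a sodium bicarbonate cotransporter, had a mean ratio of 102, with 61.3 to 122 CPM in controls and 108 CPM in tumor 1 against 0.919 CPM in other barcodes. Fxyd1, a regulator of the sodium pump, had the most UMIs of the 8 transport genes that averaged at least 5-fold above free RNA, at 662, 880, 1107 and 1035 CPM in controls and 1356 CPM in tumor 1. Slc12a2, the NKCC1 cotransporter of sodium, potassium and chloride, was only 2.95-fold above the other barcodes.

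Secreted proteins and their regulators followed. Igfbp2, an insulin-like growth factor binding protein, was at 476, 976, 1145 and 844 CPM in controls and 735 CPM in tumor 1, and Igf2 itself at 185, 496, 467 and 408 CPM against 386 CPM. Wfdc2, a secreted protease inhibitor family member, stood at 184 to 248 CPM in controls and 196 CPM in tumor 1, 63.2-fold above the other barcodes. Ace, the angiotensin-converting enzyme, averaged 175 CPM against 6.97 CPM. Abundant transcripts of this list that other brain cells share stood closer to their surroundings. Apoe, the lipid carrier, was at 3256, 3662, 3646 and 4173 CPM in control cells, against 1774, 2040, 2285 and 2069 CPM in the other barcodes and 2838 to 3317 CPM in free RNA of the same libraries. In tumor 1 the order turned, with 5474 CPM in the cells and 6424 CPM in the other barcodes. Ptgds, prostaglandin D synthase, stood at 2461, 2079, 2177 and 2251 CPM in cells of controls 1 to 4, below the 2875, 2866, 2608 and 2409 CPM of free RNA in the same libraries. In tumor 1 it was at 2199 CPM in the cells, above 1062 CPM in free RNA.

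Cilium genes were detected in the epithelial cells. The 25 genes of the cilia list summed to 715, 728, 964 and 505 CPM in controls and 976 CPM in tumor 1, against 165 to 178 CPM in the other barcodes of controls and 2812 CPM in 41 ependymal cells pooled over the 4 controls. The ependymal cells were themselves chosen by ependymal markers, most of which are on the cilia list, so their higher level is no finding. Foxj1, the transcription factor of motile cilia, stood at 14.4 to 52.9 CPM in control epithelial cells and 130 CPM in ependymal cells. Ttr in those ependymal cells was 5766 CPM, above the 1552 to 2447 CPM of free RNA in the same 4 controls, and its part in the cilium comparison was not tested.

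Of the transcription factors, Otx2 and Msx1 stood out, and none of the listed Hox genes was detected. Otx2, which is needed to form and maintain choroid plexus, was at 52.9, 104, 156 and 101 CPM in controls and 139 CPM in tumor 1, against 6.80 CPM in other barcodes, and Msx1 at 26.5, 136, 168 and 115 CPM against 82.4 CPM. The 13 Hox genes of the hindbrain list had 0 UMIs in the epithelial cells of the 5 mice, which allows up to 3.59 CPM. In the other kept barcodes of the same 5 mice they summed to 6.90 CPM, a level at which 5.76 UMIs would have been counted. The 9 genes of the forebrain list summed to 52.9, 96.0, 122 and 148 CPM in control cells, against 157 to 169 CPM in the other barcodes. In tumor 1 these sums were 133 and 131 CPM, and neither list is read for the position of the cells.

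Because Otx2 marked the cells, promoters of the 38 choroid genes, the 8 of the rule included, were searched for TAATCC, the core word bound by OTX proteins, on either strand in the 250 bases before each start site (RefSeq, GRCm38.p6). Promoters were matched for 31 genes, and 2 of their 45 promoters (4.44%) held the word, against 6.25% of 32851 promoters. The word was thus no more frequent there than elsewhere, which says only how often these letters occur in those windows. Otx2 itself is shown because 1 of its promoters held the word, in reverse orientation and in capitals below, and Kcnj13 because it marks the apical face of this epithelium. Both lie on the minus strand, at chr14:48665110-48665359 and chr1:87394730-87394979.
Otx2: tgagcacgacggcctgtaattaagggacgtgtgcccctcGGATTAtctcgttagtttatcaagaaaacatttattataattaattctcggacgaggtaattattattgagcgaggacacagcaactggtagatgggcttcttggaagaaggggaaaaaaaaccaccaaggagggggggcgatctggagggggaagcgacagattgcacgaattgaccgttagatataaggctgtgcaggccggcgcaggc
Kcnj13: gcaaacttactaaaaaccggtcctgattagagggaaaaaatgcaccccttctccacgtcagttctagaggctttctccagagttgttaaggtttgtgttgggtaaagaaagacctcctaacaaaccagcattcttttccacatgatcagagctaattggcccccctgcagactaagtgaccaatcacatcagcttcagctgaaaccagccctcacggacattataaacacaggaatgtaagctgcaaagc

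Genes for the cytokines that the study measured as proteins in cerebrospinal fluid gave few UMIs in the cells. Of 18 such genes, 14 had 0 UMIs in the 5 mice, as had 17322 of all 32289 features. Among the 14 were Csf3 (G-CSF), Csf2 (GM-CSF), Ccl3 and Ccl4 (MIP-1 alpha and beta), Il6, Il1b and Tnf. The same limit of 3.59 CPM applies over all cells, and 19 CPM in tumor 1 alone. Csf1 had 0 to 3 UMIs per mouse. The 18 genes summed to 4.21 to 52.9 CPM in control cells, 16.7 to 30.4 CPM in the other barcodes and 15.1 to 32.9 CPM in free RNA. In tumor 1 these sums were 25.3, 167 and 46.2 CPM. Vcam1, an adhesion molecule known on this epithelium, was detected, at 0, 96.0, 75.8 and 64.9 CPM in controls and 152 CPM in tumor 1. Of the interferon-responsive genes, Ifi27 was abundant in controls already (529, 872, 568 and 400 CPM, and 836 CPM in tumor 1).

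Each epithelial gene other than Ttr and Enpp2 was caught in part of the cells. Ecrg4 had a UMI in 199 of 208 cells (95.7%), Folr1 in 158 (76.0%), Kcnj13 in 125 (60.1%) and Otx2 in 64 (30.8%). In the 377 endothelial cells of the same mice, which should lack these genes, the shares were 4.51%, 0.531%, 1.06% and 1.59%, at a median depth of 2900 UMIs against 3311.5 UMIs in the epithelial cells. Ttr itself had a UMI in 57.6% of endothelial cells. Thinned to 1000 UMIs per cell, Ecrg4 remained in 72.5% of 149 control cells and 80.7% of 57 tumor 1 cells, and Folr1 in 45% and 42.1%. Prlr was in 33.6% and 19.3% of the thinned cells, Sostdc1 in 42.3% and 29.8%, and Calml4, a calmodulin-like protein, in 26.2% and 50.9%.

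Markers of other cell types were present, and most lists stood near or below their level in free RNA. The 14 neuron markers summed to 7755, 5453, 3592 and 6933 CPM in control cells and 1552 CPM in tumor 1, against 9285 to 10051 CPM in free RNA of controls and 6067 CPM in that of tumor 1. Astrocyte markers were at 2143 to 3097 CPM in controls and 2839 CPM in tumor 1, against 2749 to 2990 CPM and 7175 CPM in free RNA. Endothelial markers summed to 50.5 to 96.0 CPM in controls, above the 42.9 to 56.0 CPM of free RNA in part, and to 82.4 CPM in tumor 1, below its 258 CPM. Slco1a4 and Itm2a gave most of the endothelial UMIs, and Pecam1, Cdh5, Esam and Tie1 had 0 UMIs in all 5 mice. The fibroblast markers Col3a1, Lum and Dpt were at 0 too. Of the 9 pericyte and smooth muscle markers 4 were at 0, among them Acta2, Myl9 and Tagln. That list summed to 33.7 to 72.0 CPM in controls, against 50.1 to 73.4 CPM in free RNA. In tumor 1 it summed to 146 CPM, against 199 CPM in free RNA. Igf2, which the fibroblast list also holds, accounted for most UMIs of that list. Ependymal markers, which overlap the cilium genes, were above free RNA in every mouse (231 to 446 CPM in controls and 450 CPM in tumor 1, against 89.0 to 94.3 CPM). Microglia and macrophage markers summed to 248 to 384 CPM in controls, against 495 to 560 CPM in free RNA, and to 1140 CPM in tumor 1, against 1005 CPM, but 30 of the 39 C1qa UMIs and 27 of the 36 C1qc UMIs of tumor 1 lay in 1 cell each. Likewise 20 of the 21 Cd74 UMIs of control 2 came from 1 cell. Doublet calling marked 2 of the 209 cells.

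The reporter was near its free RNA level in the epithelial cells, and the fusion was not detected. tdTomato UMIs numbered 1, 2, 4 and 15 in controls 1 to 4, or 26.5, 16.0, 16.8 and 54.1 CPM, against 23.9, 25.2, 29.2 and 58.4 CPM in free RNA of the same libraries. Controls 2 to 4 were below free RNA, and control 1, with its 1 UMI, slightly above. No epithelial cell held a fusion UMI, including all 59 cells of tumor 1, at a limit of 19 CPM. In the other kept barcodes of tumor 1 the fusion was itself at 4 UMIs, so its absence from the epithelial cells was not detectable as a difference at this depth.

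Gene levels in tumor 1 were compared with those of controls 2 to 4, the mice with at least 20 cells, as a description of these 4 libraries. The plan asked for at least 2 tumors, so the test across genes was not run and no p-value is given. Values are differences of log2(CPM + 10), which understate changes of low genes. A gene was called higher or lower when it was at least 2-fold different and lay outside all 3 controls. Of 4983 genes with at least 20 UMIs, 171 (3.43%) were called higher and 923 (18.5%) lower, and the median difference over all of them was -0.29. Ttr took more of the UMIs in tumor 1, and with Ttr left out of the totals the median moved to -0.17, with 265 higher and 831 lower.

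The 923 lower genes were set beside free RNA. Of the 923, 11 were among the 184 genes that averaged at least 5-fold above free RNA. In those 184 genes, 29 (15.8%) were higher and 11 (5.98%) lower, but the 5-fold limit averaged tumor 1 with the controls, so that a high level in tumor 1 helped a gene to pass. With the limit set on controls 2 to 4 alone, 214 genes passed, of which 29 (13.6%) were higher and 18 (8.41%) lower, and there a high level in controls helped. Neither split is read as a direction. Subtracting a scaled free RNA profile removed 24.0%, 22.2% and 38.9% of UMIs in controls 2 to 4 and 9.29% in tumor 1, and left 199 higher (5.74% of 3466 genes) and 488 lower (14.1%). The neuron list had 10 of 14 genes lower and a median of -1.57 (6 lower and -0.93 after subtraction), beside free RNA that also held fewer neuron transcripts in tumor 1.

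Choroid plexus genes were called at shares near those of all genes, so nothing is read from their count. Of the 26 choroid genes outside the rule, 2 (7.69%, against 3.43% of all genes) were higher, 3 (11.5%, against 18.5%) lower and 21 neither, with a median of -0.29, as over all genes. With free RNA subtracted, 1 was higher and 5 lower, and the median was -0.62 against -0.17 for all genes. Rdh5, a retinol dehydrogenase, was at 192, 215 and 231 CPM in controls 2 to 4 and 558 CPM in tumor 1, a difference of 1.35. It was 52.9 CPM in control 1. Steap1, a metalloreductase family member, was at 96.0, 122 and 141 CPM against 279 CPM (1.17), and fell short of 2-fold, at 0.85, with free RNA subtracted. Lower were Slc4a2, the basolateral chloride bicarbonate exchanger (112, 164 and 93.8 CPM against 44.4 CPM), Htr2c, the serotonin receptor 2C (200, 303 and 144 CPM against 57.0 CPM), and Pcolce, a procollagen processing enhancer (48.0, 88.4 and 68.5 CPM against 25.3 CPM). These rest on 7, 9 and 4 UMIs in tumor 1. Control 1 was at 79.4, 106 and 26.5 CPM in the 3 genes, so that for Pcolce it was level with tumor 1 and the difference from all 4 controls was -0.85, under 2-fold.

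Transporters and receptors are given beside all genes (18.5% lower, 3.43% higher and a median of -0.29). In the list of solute and hormone transport, 4 of 20 genes (20.0%) were lower and none higher, and in that of ion and water transport 6 of 21 (28.6%) were lower and 1 (Aqp4, an astrocyte water channel) higher, with medians of -0.33 and -0.39. With free RNA subtracted, 6 genes of each list were lower and none higher, and the medians were -0.63 and -0.49, against -0.17 over all genes. Aqp4 kept a difference of 1.98 but was no longer called, since the subtraction left it under 20 UMIs. Slco1c1, a thyroid hormone and organic anion transporter, was at 176, 185 and 177 CPM in controls 2 to 4, 185 CPM in control 1 and 31.7 CPM in tumor 1, a difference of -2.18. Slco1c1 is also an endothelial gene, at 764 CPM in endothelial cells of controls, and in the other kept barcodes it was higher in tumor 1 by 1.34. Lepr, the leptin receptor, had 0 UMIs in tumor 1 against 40.0, 42.1 and 25.2 CPM, and Atp2b3, a plasma membrane calcium pump, was at 44.4 CPM against 184, 198 and 148 CPM. Atp1b1, a subunit of the sodium pump, differed by -1.25, beside -1.69 in the other kept barcodes. The ion and water list summed to 2851 to 2986 CPM in the other barcodes of controls and 2103 CPM in those of tumor 1. In free RNA it was at 3378 to 3503 CPM and 2205 CPM. The solute list went the other way, at 1005 to 1046 CPM and 1830 CPM in the other barcodes and 762 to 819 CPM and 1126 CPM in free RNA. The part of these levels was not tested beyond the subtraction.

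Chaperone genes were called lower more often than all genes, beside a lower level of the list in the other barcodes and in free RNA. In the whole list 7 of 15 genes (46.7%, against 18.5% of all genes) were lower, 1 (Hspb1) was higher and the median was -0.71. With free RNA subtracted 5 were lower, none was higher and the median was -0.57. The list summed to 6651 to 8761 CPM in control cells and 3998 CPM in those of tumor 1, to 4865 to 5338 CPM and 3724 CPM in the other barcodes, and to 7292 to 7871 CPM and 3285 CPM in free RNA, and the part of these in the list's difference was not tested beyond the subtraction. Of the 7 lower genes, Hsp90ab1, Hsp90aa1, Hspa8 and Hsph1 were also lower in the other barcodes (by 0.58 to 0.88), and Hspa5, Hsp90b1 and Dnajb11, chaperones of the endoplasmic reticulum, were not. Hspa5 (BiP) was at 536, 497 and 458 CPM in controls 2 to 4, 635 CPM in control 1 and 133 CPM in tumor 1 (-1.82), with a difference of 0.32 in the other kept barcodes. Hsp90b1 (GRP94) was at 1183, 699 and 646 CPM against 279 CPM (-1.51), with 0.25 in the other barcodes. The integrated stress response list had 3 of 7 genes lower (42.9%, against 18.5% of all genes), which were Atf4, Ddit3 and Asns, none higher and a median of -0.77. All 20 genes of the list summed to 307 to 480 CPM in control cells and 348 CPM in those of tumor 1, from 55 UMIs, inside the control range. With free RNA subtracted 2 were lower and the median was -0.64. Asns was then under 20 UMIs, and it was at 0 CPM in control 1 without subtraction.

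Metal and oxidative stress genes were more often higher than lower. In that list 8 of 24 genes (33.3%, against 3.43% of all genes) were called higher, none lower, and the median was 0.61 against -0.29 for all genes. With free RNA subtracted 8 were higher and the median was 0.65. The list was also higher in free RNA, at 11678 to 12245 CPM in controls and 21335 CPM in tumor 1, beside 10137 to 12341 CPM and 18495 CPM in the cells. Gpx4, which reduces lipid peroxides, was at 936, 1507 and 1042 CPM in controls 2 to 4 and 2610 CPM in tumor 1 (1.19). Ftl1, the ferritin light chain, was at 488, 834 and 519 CPM against 1508 CPM (1.33), and Mt1, a metallothionein, at 536, 358 and 555 CPM against 1375 CPM (1.52). Gpx3, a secreted glutathione peroxidase, was at 8.00, 0 and 0 CPM in controls 2 to 4, 0 CPM in control 1 and 152 CPM in tumor 1, where 15 of 59 cells held a UMI. In the other kept barcodes of tumor 1 Gpx4, Ftl1, Mt1 and Gpx3 were also higher, by 0.91, 1.92, 2.15 and 1.70. The nuclear respiratory chain list had none of 35 genes called either way, with a median of -0.03.

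**Figure D4:**
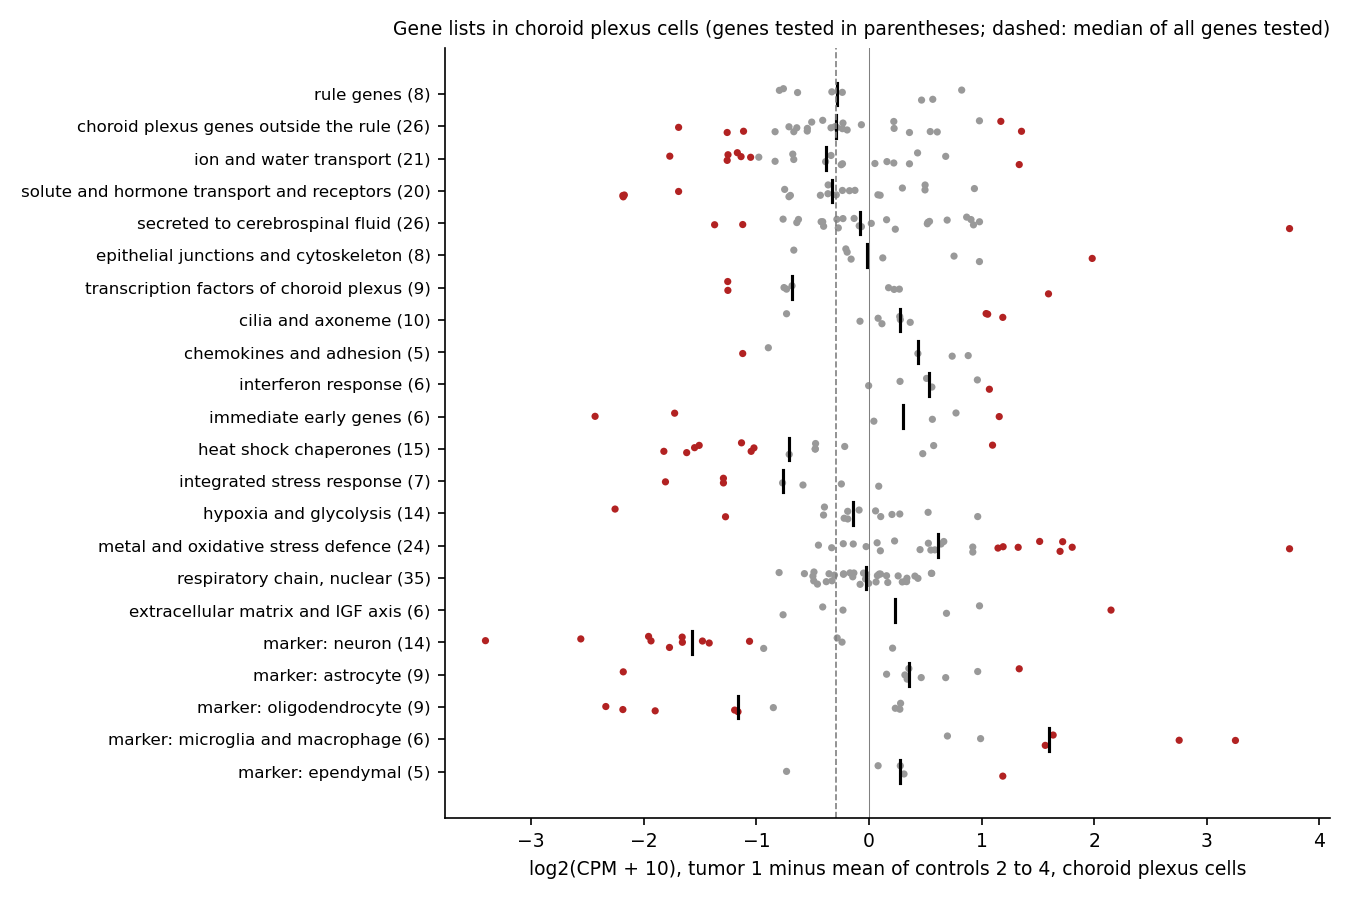
Difference of log2(CPM + 10) between choroid plexus epithelial cells of tumor 1 and the mean of controls 2 to 4, 1 point per gene, for lists with at least 5 genes at 20 UMIs or more (number in parentheses); red points were at least 2-fold different and outside all 3 controls, bars are list medians and the dashed line is the median of all genes (-0.29). Without subtraction of free RNA, as drawn here, the choroid list sits on that line, the neuron list lies below it at -1.57 and the metal and oxidative stress list above it at 0.61; with subtraction their medians were -0.62, -0.93 and 0.65, against -0.17 for all genes.

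Among the 184 genes, the largest differences that held after subtraction and without each control were small in UMIs. The 10 higher genes were Nt5dc2, Clic3, Crb3, Fam161a, Hemk1, Fbxo36, Wdr86, Tspo, Acad8 and Rdh5, with differences of 1.35 to 2.17. Nt5dc2 passed the 5-fold limit only through tumor 1, since in controls 2 to 4 it averaged 27.5 CPM against 11.4 CPM in free RNA, and the other 9 also passed on controls alone. Hemk1, a methyltransferase family member, was the best counted after Rdh5, at 136, 168 and 105 CPM in controls 2 to 4 and 444 CPM in tumor 1, from 70 UMIs. Tspo, an outer mitochondrial membrane protein, was at 184, 147 and 108 CPM against 425 CPM, but was also 2.66 higher in the other kept barcodes. Crb3, an apical polarity protein, was at 8.00, 25.3 and 25.2 CPM against 101 CPM. The lower genes included Slco1c1, Lepr, Atp2b3, Ins2, Defb11, Sfrp1, Ctnnal1, Slc4a2 and Pcolce, with differences of -2.18 to -1.11 and 0 to 8 UMIs each in tumor 1. With control 1 added, 3 of these were no longer called. Ctnnal1 was at 26.5 CPM in control 1 against 50.7 CPM in tumor 1, which left a difference of -0.77, Pcolce came to -0.85, and Defb11 was at 0 CPM in control 1, below its 6.34 CPM in tumor 1. Sfrp1, a secreted Wnt antagonist, was at 48.0, 50.5 and 68.5 CPM against 12.7 CPM.

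The difference of tumor 1 from controls was also set against that of endothelial cells, another barrier cell type, in the same mice. Controls 2 to 4 and tumor 1 had at least 20 cells of both classes, with 42 to 182 endothelial cells each. The difference between the cell types in the tumor difference was fitted on UMI sums per mouse with the mouse as a block (edgeR's quasi-likelihood fit). Since only 1 tumor entered, the fit holds no spread between tumors, and effect sizes are given without p-values. The genes named were picked by the fit itself or after their values were seen. The 26 choroid plexus genes fitted outside the rule had a median of -0.15, against -0.13 over all 6554 genes.

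Of 15 chaperones tested, edgeR called 2 lower in the epithelial cells (against 0.519% of all genes) and 1 higher (against 0.198%), and DESeq2 called 0 of the 15. Hspa5 was at 162, 227 and 172 CPM in endothelial cells of controls 2 to 4 and 329 CPM in those of tumor 1, above all 3 controls there and below them in the epithelial cells. Its difference between the cell types was -2.60 on the log2 scale, and that of Hsp90b1 -1.80. Cryab, a small heat shock protein, was at 135, 118, 156 and 68.3 CPM in endothelial cells and 504, 509, 382 and 646 CPM in epithelial cells (1.60). With each control left out Hspa5 ran from -2.69 to -2.46, Hsp90b1 from -1.98 to -1.62 and Cryab from 1.36 to 1.83. DESeq2 gave -2.50, -1.69 and 1.70.

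Slco1c1 stood at 589, 927 and 786 CPM in endothelial cells of controls 2 to 4 and 724 CPM in those of tumor 1 (-2.27). It ran from -2.34 to -2.15 with each control left out and was -2.20 in DESeq2. C1qc differed too, with the epithelial difference above the endothelial one (3.47). Of its 36 UMIs in the epithelial cells of tumor 1, 27 lay in 1 cell. The difference of Tmsb10, in turn, rested on the endothelial cells. Tmsb10, an actin-binding thymosin, was at 391, 414 and 393 CPM in endothelial cells of controls and 2413 CPM in those of tumor 1, against 208, 173, 224 and 127 CPM in the epithelial cells (-3.16). Tmsb10 was chosen after its values were seen, and free RNA was not subtracted here.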

How the data were processed

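Droplet 5′ single-cell libraries were deposited by the authors as matrices of raw UMI counts per gene and barcode. Per the submitters' notes reads were processed with Cell Ranger 7 on mm10 and analysed with Scanpy 1.8.2; the matrix headers name Cell Ranger 6.1.2. Each of the 5 tumor and 4 control libraries was taken as 1 mouse, but the study's legends give 4 mice for its tumor single-cell data; should a pair of tumor libraries share a mouse, p-values over mice would be too small. Groups came from the genotype labels. Members, lists and comparisons were chosen with earlier results of these data known. Counts were summed per mouse over members and scaled to counts per 1000000 UMIs (CPM). Two-sided exact permutation tests compared per-mouse values. The planned count model across genes needed 2 tumors with at least 20 members and was not run, since 1 had them. Members and endothelial cells were compared on counts summed per mouse and class with edgeR 4.0.16 (filterByExpr, TMM, quasi-likelihood fit of the interaction, mouse as block, 2 residual degrees of freedom), with DESeq2 1.42.0 as an alternative (R 4.3.3). Since 1 tumor entered that fit, its effect sizes are given without p-values. Genes of the comparison are described from 20 summed UMIs, with a pseudocount of 10, a 2-fold limit and values outside all controls. Named genes were the rule's genes, abundant genes and list genes. Since that model was not run and gave no p-values, genes at least 5-fold above free RNA were ranked by difference. The 10 with the largest difference each way were named, a choice made after seeing the data. A few genes are not reported here. Also chosen then were the alternatives to the edgeR fit, the 5-fold limit on controls alone, free RNA without kept barcodes, the 2% Malat1 limit and the promoter word.

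Endothelial and ependymal cells were kept barcodes with a UMI in at least 3 markers of the list (endothelial cells also of Cldn5 or Flt1) and Ttr under 5%. For the free RNA subtraction, the profile of the 3000 lowest barcodes was scaled until the lowest of the neuron markers over 100 CPM reached 0. Doublets were marked with Scrublet (scanpy 1.11.5) at 0.8% per 1000 barcodes. The 10 most abundant features outside the rule were Gm42418, Malat1 and 8 mitochondrial genes. The list of control 4 had 2 features and 22 barcodes fewer than its matrix, so its rows were named by the other libraries' list and its barcodes could not be matched. In the 28 library pairs that could be compared at most 31 kept barcodes were shared; no member was shared, and 6 member barcodes were kept in another library. No pair of libraries of a group agreed within sampling noise (chi-square per degree of freedom at least 4.44). Scripts were tested on simulated counts. Python 3.11.15, numpy 2.4.6, scipy 1.17.1 and pandas 2.3.3 were used.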

Additional observations from a re-analysis of the deposited data

Results flagged for a closer look

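Tumor 1 stood apart from the other 4 tumors in the number of epithelial cells (59) and in their share of kept barcodes (2.07%), and its free RNA held 0.0749% Ttr where the other tumors had 0.000594% or less. Among the 4 controls, control 1 stood apart with a median of 1796 UMIs and 987 genes per epithelial cell, where the other controls lay between 3991 and 4195 UMIs and between 1638 and 1731 genes. Each of these 5 values had a gap to its neighbour above Dixon's 95% critical value (0.829 for 4 samples and 0.710 for 5). In all, 10 groups of values were looked at, of which chance flags about 1 in 20, and the 3 values of tumor 1 and the 2 of control 1 are not independent of each other. In the comparison of epithelial with endothelial cells of the same mice, the fit picked out Hspa5 (-2.60), Hsp90b1 (-1.80), Cryab (1.60) and Slco1c1 (-2.27), as log2 differences between the cell types. Only 1 tumor entered that fit, so these are effect sizes without a p-value.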

How the results depend on the processing

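The difference in the share of kept barcodes (tumor minus control, -0.110 percentage points) turned positive with a mitochondrial limit of 10% (0.197, exact permutation p = 1) and with no limit on barcodes (0.270, exact permutation p = 1). It stayed negative, with no exact permutation p under 0.05, under the other 9 selections, of which 2 were added after seeing the data (no mitochondrial limit, -0.279, and cells with at least 2% Malat1, -0.0493). With each mouse left out it ran from -0.524 to -0.00178. Only without tumor 1, which held 59 of the 60 tumor cells, was the exact permutation p under 0.05, at 0.0286 and not adjusted. The counts of genes in tumor 1 against controls were 171 higher and 923 lower. Several alternatives also changed how many controls had 20 cells and so were compared: 4 at a Ttr limit of 1% and with no barcode limit, and 2 at a Ttr limit of 10% and with 5000 barcodes, so these moves cannot be put down to the selection alone. The counts moved by over 1.5 times with Ttr at 10% (543 lower) or 1% (268 higher, 1424 lower), no barcode limit (259 higher), 5000 barcodes (567 lower), at least 10 cells per mouse, which adds control 1 (262 higher), at least 50 cells, which leaves control 4 alone (607 lower), no filter on low counts (594 higher, 1654 lower), Ttr out of the totals (265 higher) and free RNA subtracted (488 lower). With each control left out they ran from 119 to 162 higher and from 568 to 778 lower, the lowest without control 4. For 37 genes of the comparison under 18 alternatives, 591 of 666 values moved by less than 1 SD of the controls, 75 by more, and 0 called values changed sign. No genes could be compared at a 10% mitochondrial limit, where no control kept 20 cells. Fits across genes of tumor against control within the cells (edgeR, DESeq2, limma voom, the replicate block) were not run, since the design set aside groups with fewer than 2 samples. The comparison with endothelial cells, paired by mouse, gave 13 genes higher and 34 lower, and alternatives chosen after seeing the data moved these by over 1.5 times without the replicate block (15 lower, with 9 higher), with no filter on low counts (16 lower) and in DESeq2 (3 higher, 1 lower). With each control left out they ran from 10 to 25 higher, the highest without control 3, and from 18 to 28 lower, the lowest without control 4 and 22 without control 2. The comparison with ependymal cells could not be made, since no mouse had 20 cells of both classes. Depth limits single genes: 3 counts correspond to 10.8 to 79.4 CPM per mouse.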
